A study of Morone chrysops x Morone saxatilis with 6 samples.

Results

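The subject is the 200 steadiest of the well-expressed coding sequences in the liver of hybrid striped bass, that is, those whose level changed least over 6 libraries. They were selected on their measured levels: counts were expressed per 1000000 counts of the library (CPM), the 100 coding sequences of highest mean CPM were left out, those with a mean of 20 CPM or more were kept, and the 200 with the lowest coefficient of variation (CV, the SD over the 6 libraries divided by the mean) were taken. The table held 38047 coding sequences, 4834 of them lay within both limits on level, and the members were 4.14% of these 4834. A low CV is therefore what made a coding sequence a member, and neither the CV of the members nor any difference between the 6 libraries in them is a finding in its own right.

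Hybrid striped bass descend from white bass crossed to striped bass. The parents were domesticated fish, F8 white bass and F4 striped bass, mated in a partial diallel, and offspring of 44 half-sib families were grown in 4 communal ponds of 0.04 hectare for 115 days. The large group was liver RNA of the largest fish at harvest and the small group liver RNA of the smallest, with 3 libraries each (numbered 1 to 3 within a group), and the labels name neither sex nor age by group. Each library was made from RNA pooled in equal amounts from several fish, so a pool averages over fish and levels in single fish were not seen. The labels call the pools biological replicates but do not say which or how many fish went into each, and every p-value rests on the variation among the 6 pools.

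Transcripts that hold a steady level across animals and conditions are the raw material for reference genes, against which other transcripts are measured in quantitative PCR. Such genes usually serve functions that every cell needs, for example protein synthesis, the cytoskeleton or energy supply. The liver adds its own strongly expressed genes for blood proteins, metabolism and growth factors, and many of those respond to feeding, sex and growth. The coding sequences here carry only a running number (HSB_liver_CDS_ and the number), which the files do not pair with a gene name, so no member can be given a function, the liver label could not be checked against marker genes, and lists of reference genes, hepatocyte genes and blood cell genes could not be matched.

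Total counts ranged from 2434421 in small library 2 to 19625891 in large library 3. None of the members' values was 0. Their counts ran from 46 to 22098, and the median member had 110 counts in small library 2 and 850.5 in large library 3. The libraries differed well beyond sampling noise, with a mean squared deviation of 11.8 times the counting variance in the closest pair, so all 6 were treated as separate samples.

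The members spanned nearly the whole range of level that the rule allowed, from 20.5 to 1335 mean CPM with a median of 43.8. The median of the other 4634 coding sequences within the limits was 42.3 CPM, close to that of the members. When the 4834 were ordered by mean CPM and cut into 5 bands of equal size, the bands held 36, 34, 44, 51 and 35 members from the lowest to the highest level. The CV of the members ran from 2.17% to 11.4% with a median of 9.51%, against a median of 34.8% for the other coding sequences. Of the members, 12 were below 5% and 122 below 10%. Between its highest and its lowest library the median member differed 1.29-fold and the most variable member 1.43-fold, whereas the median of the other coding sequences was 2.51-fold.

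**Figure D1:**
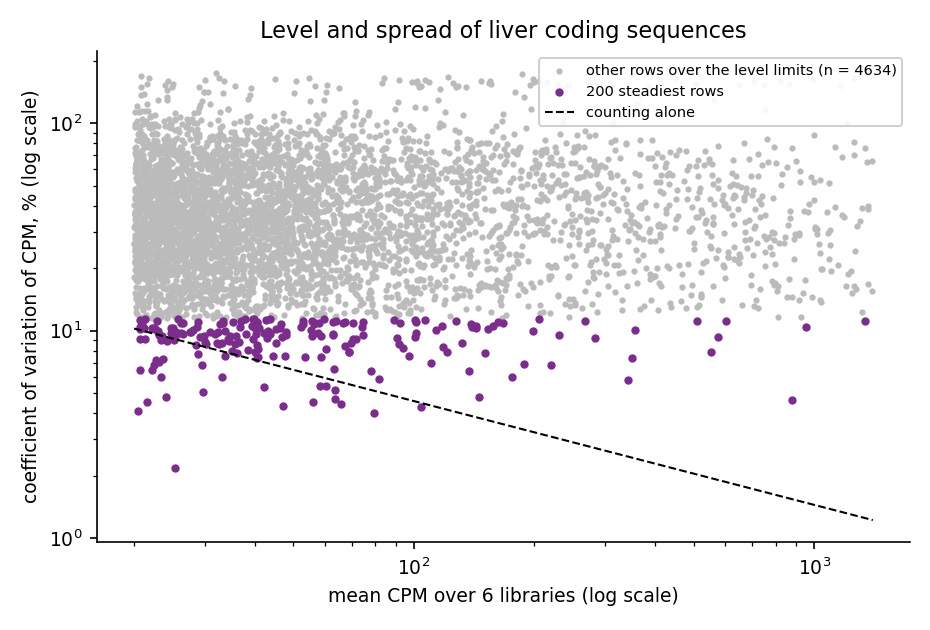
Mean CPM over 6 libraries (horizontal, log scale) against the CV of CPM in percent (vertical, log scale) for the 200 members (purple) and the other 4634 coding sequences within the limits on level (grey). The dashed line is the CV that counting alone gives at these library totals. The members form the lower edge of the cloud at every level, and 33 of them lie below the line.

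HSB_liver_CDS_8182 had the lowest CV of all, 2.17%. It stood at 25.7, 25.5 and 24.4 CPM in large libraries 1, 2 and 3 and at 25.1, 25.9 and 25.5 CPM in small libraries 1, 2 and 3. Large library 3 was the lowest and small library 2 the highest of the 6, the ranges of the groups overlapped in part, and their means were 25.2 ± 0.73 CPM (SD, n = 3) and 25.5 ± 0.40 CPM (SD, n = 3). Its counts were only 137, 122, 478, 223, 63 and 89 in the same order, for which counting alone would give a CV of 9.09%. The observed spread was thus smaller than drawing reads gives on average, and the 2.17% does not measure how steady the transcript itself is.

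The next in rank was HSB_liver_CDS_25716 with a CV of 4.03%. It stood at 79.6, 83.8 and 78.1 CPM in large fish and at 81.6, 78.9 and 74.5 CPM in small fish. Counting alone would give it a CV of 5.14%, more than was observed. The third, HSB_liver_CDS_2886, had a CV of 4.08% and was at the same time the member of lowest mean level, with 20.5, 20.1 and 19.1 CPM in large fish and 21.1, 20.5 and 21.5 CPM in small fish. In HSB_liver_CDS_2886 every small library was above every large one, though the group means, 19.9 ± 0.70 and 21.1 ± 0.48 CPM (SD, n = 3 each), were only 1 CPM apart. The closest values were 20.46 CPM in large library 1 and 20.54 CPM, from 50 counts, in small library 2. Counting alone would give it a CV of 10.1%, so depth does not resolve this separation.

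At the other end of abundance HSB_liver_CDS_30382 averaged 1335 CPM, the highest level among the members. It stood at 1400, 1253 and 1126 CPM in large fish and at 1257, 1444 and 1532 CPM in small fish, and the groups overlapped. Counting alone would give this abundant transcript a CV of 1.253%, against the 11.2% observed. It therefore varied far more than counting error although it is a member, and its chi-square statistic, divided by the degrees of freedom, was 127, the largest among them.

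Members in the middle and at the edge of the ranking show what the limit admits. The member of rank 100, HSB_liver_CDS_28334, had a CV of 9.51% and stood at 71.7, 71.5 and 68.1 CPM in large fish and at 76.1, 87.9 and 71.3 CPM in small fish. A single library, small library 2, was set off from the others in it. HSB_liver_CDS_22682, of rank 200 with a CV of 11.41%, stood at 30.2, 38.0 and 43.3 CPM in large fish and at 38.5, 37.4 and 40.1 CPM in small fish. Both its lowest and its highest value came from the large group. Just outside the limit HSB_liver_CDS_30942, with a CV of 11.43%, stood at 38.1, 47.2 and 40.3 CPM in large fish and at 38.3, 37.4 and 33.8 CPM in small fish.

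The limits on level also left out coding sequences of low CV. There were 5 of the 100 most abundant and 113 of those under 20 mean CPM with a CV no higher than that of the member of rank 200. HSB_liver_CDS_31485, at a mean of 2323 CPM and a CV of 8.38%, was the steadiest of the 100 most abundant, with 2098, 2410 and 2316 CPM in large fish and 2099, 2585 and 2432 CPM in small fish. HSB_liver_CDS_32304 had a CV of 7.98% but a mean of 19.8 CPM, just under the limit. Counting alone would give it a CV of 10.3%. HSB_liver_CDS_24644 had the lowest CV of all coding sequences under the limit, 3.29% at a mean of 18.2 CPM, where counting alone would give 10.7%. In both, the observed CV does not measure how steady the transcript itself is.

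At the lower levels the observed CV of many members was close to what counting alone gives. From the library totals, reads drawn at a constant level would give the median member a CV of 6.92%, and the observed CV was 1.34 times its counting CV at the median. For the other coding sequences within the limits the counting CV was about the same, 7.04% at the median, but the observed CV was 5.51 times as large. In 33 of the 200 members, and in 0 of the other 4634 coding sequences, the observed CV was below the counting CV. The 0 follows from the rule, since the counting CV at the lowest admitted level lies below the limit on CV. The chi-square statistic divided by its degrees of freedom sets each library's deviation against its own counting variance. Its median over the members was 2.34, and it was under 1 in 27 of them, so most members varied more than counting by this measure. In the lowest band of level the median member's CV was 1.01 times its counting CV, and in the highest band it was 2.79 times. These ratios follow largely from the rule, which caps the CV at 11.4% at every level. The median counting CV of a band fell from 9.65% in the lowest to 2.89% in the highest. The part of counting error in the ranking was not tested, and depth at low level does not resolve which member is the steadier. When the counting part was taken off each CV before ranking, 160 of the 200 were chosen again.

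**Figure D2:**
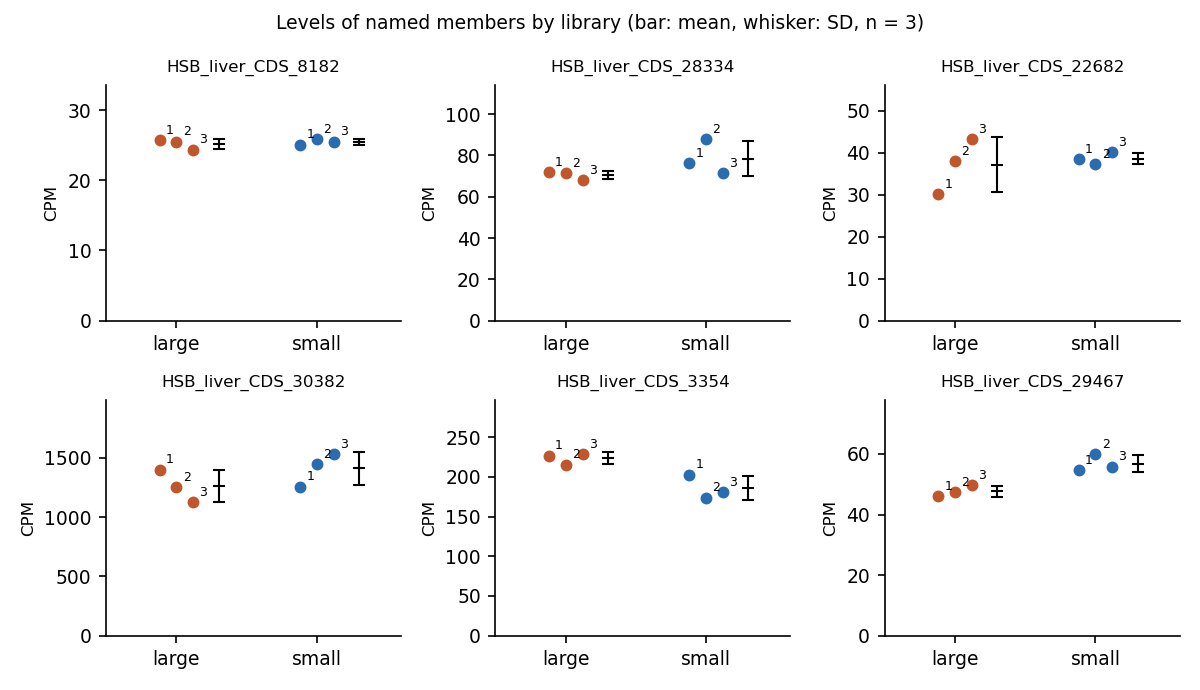
CPM of 6 members named by rank, level or group difference, in the 3 large (orange) and the 3 small (blue) libraries, labelled by library number. Bars are means and whiskers SD (n = 3). Axes start at 0 CPM, and within each panel the 6 values lie within 1.43-fold of each other.

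On library totals the members were slightly lower in large library 3 and small library 1 than in the other 4. The median member stood at -0.05 (log2 of the CPM over its own mean) in large library 3 and at -0.06 in small library 1, whereas its level was 0.02 in large library 1, 0.03 in large library 2, 0.03 in small library 2 and 0.02 in small library 3. Large library 3 held the lowest value of 52 members and small library 1 that of 51, against 20 to 29 in each of the other libraries. The highest value lay in large library 1 for 45 members, in small library 2 for 41, in large library 2 for 39 and in small library 3 for 38, but in small library 1 for 19 and in large library 3 for 18. The same 2 libraries were the deepest, with 19625891 and 8892682 counts, and detected the most coding sequences, 33686 and 31819 against 25629 to 29203 in the others. The part of depth in this difference was not tested, and the values given are on the scale of totals. TMM factors, 0.935 for large library 3 and 1.03 for small library 1, shift these 2 libraries in opposite directions. They raise levels in large library 3 and lower them further in small library 1.

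Summed over the members, the share of a library's counts was 1.83%, 1.84% and 1.73% for large fish (libraries 1, 2 and 3) and 1.73%, 1.87% and 1.83% for small fish. Group means were 1.80% ± 0.06 (SD, n = 3) for large fish and 1.81% ± 0.07 (SD, n = 3) for small fish. The rule holds the members nearly level on totals, so nothing about growth is read from these means. Exact 95% binomial intervals, which cover counting error only, were 1.73% to 1.74% for large library 3 and 1.85% to 1.88% for small library 2, far narrower than the distance between these libraries.

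**Figure D3:**
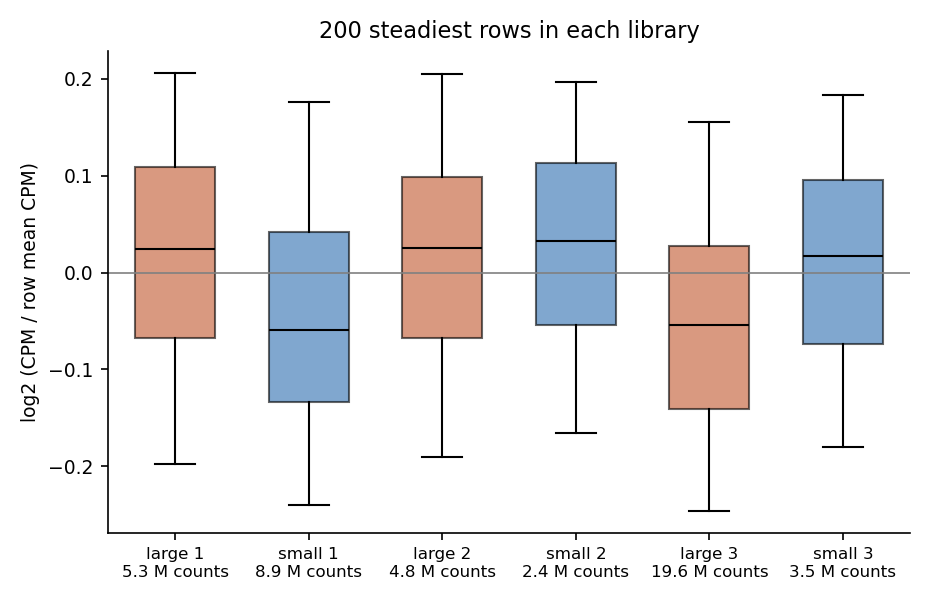
Level of the 200 members in each library, on library totals, as log2 of the CPM over the member's own mean (boxes: quartiles and median, whiskers: 5th to 95th percentile; orange large, blue small). The boxes of small library 1 and large library 3 sit lowest, with medians of -0.06 and -0.05, and the medians of the other 4 lie between 0.02 and 0.03.

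Large and small fish were compared over the whole table, and the members' values follow as a description because the rule used the same libraries. On the scale of library totals, which the rule used, 100 members had the higher and 100 the lower mean of log2 CPM in large fish, whereas with TMM factors in the edgeR fit 143 were higher and 57 lower. On totals the differences, large minus small, ran from -0.25 to 0.27 on the log2 scale with a median absolute size of 0.07, against 0.18 for the other coding sequences within the limits. The main test was the quasi-likelihood test of edgeR with growth group alone in the model, so it did not pair same-numbered libraries. Benjamini-Hochberg adjustment ran over all 18135 coding sequences tested. At an adjusted p of 0.05, 0 of the 200 members passed, against a background of 0% of all tested. An unadjusted p under 0.05 was reached by 0 members and by 194 of all 18135. With the library number as a block it was reached by 0 members and by 907 of all 18135. DESeq2 called 1 of 37332 coding sequences and, with the library number as a block, 51 of 37503. Limma voom and edgeR with the block called 0 of 18135. None of these fits called a member (0 of 200 in each), which says little at such small shares over all coding sequences.

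The members with the largest differences between growth groups were few and the differences small. HSB_liver_CDS_3354 was at 227, 216 and 229 CPM in large fish and at 203, 174 and 181 CPM in small fish. The groups did not overlap, with means of 224 ± 7.16 and 186 ± 15.1 CPM (SD, n = 3 each), and the log2 difference was 0.27. HSB_liver_CDS_16876 was at 72.5, 70.0 and 62.1 CPM in large fish and at 57.0, 58.7 and 56.4 CPM in small fish, a log2 difference of 0.24 without overlap.

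In the opposite direction HSB_liver_CDS_29467 was at 46.0, 47.5 and 49.6 CPM in large fish and at 54.5, 60.0 and 55.8 CPM in small fish. Its groups did not overlap, and the log2 difference was -0.25. HSB_liver_CDS_25663 stood at 25.5, 22.99 and 23.5 CPM in large fish and at 29.6, 26.3 and 29.5 CPM in small fish, a log2 difference of -0.24. These differences are on library totals, and with TMM factors the log2 differences of the members ran from -0.19 to 0.33, HSB_liver_CDS_3354 being at 0.33.

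In 7 members (3.5%) every large library was above every small one, where the background among the 4834 coding sequences was 1.22%. In 10 members (5.0%) every small library was above every large one, with a background of 2.57%. The largest ratio of group means among these 17 was 1.20, in HSB_liver_CDS_3354. The same libraries chose the members, so nothing is read from these shares.

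The number of a library accounted for less of the spread in the members than in the rest. Sums of squares of log2 CPM around each member's mean divided into 51.5% for the number, 17.9% for the growth group and 30.6% for the remainder. In the other coding sequences within the limits the shares were 82.6%, 7.33% and 10.04%. An even division by degrees of freedom would be 40%, 20% and 40%. The members' spread was thus nearer to an even division than that of the others, which is a description, since a low total spread was the rule. How much counting error added to each part was not tested.

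A trace of the number was still present in the members. Deviations from the group mean correlated across members, for same-numbered libraries of the 2 groups, at 0.33, 0.28 and 0.32 for numbers 1, 2 and 3, and between libraries of different numbers at -0.21 to -0.10. Among the other coding sequences the same-number values were 0.85, 0.52 and 0.83. Coding sequences are not independent replicates, and deviations within a group of 3 sum to 0, so these values are descriptions.

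Number 1 was set against the other numbers over the whole table, and numbers 2 and 3 were not each set against the rest. With growth group in the model, 4611 of the 18135 tested (25.4%) passed an adjusted p of 0.05 in edgeR when number 1 was set against numbers 2 and 3, but 0 of the 200 members did. The smallest adjusted p among the members was 0.085, and 1 of the 200 had an unadjusted p under 0.05. The count over all coding sequences fell most when a library of number 1 was left out, which left that number with 1 library. The members' median log2 difference was then -0.17 without small library 1 and -0.08 without large library 1, against -0.12 with all 6. The count was 1476 of 19870 tested when small library 3 and 1483 of 19089 when large library 3 was left out. In both of these fits 0 members were called. Both libraries of number 1 were above the other 4 in 13 members (6.5%), against 34.6% of the 4834, and below them in 29 members (14.5%), against 28.2%. The rule used all 6 libraries, so a low count among members was fixed by it.

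Whether the members look level or shifted in number 1 depended on the scaling. On the scale of library totals, which the rule used, the members' median log2 difference of number 1 from numbers 2 and 3 was 0.00 in the fit, while the median of all 18135 coding sequences was 0.20. With TMM factors, which centre on the bulk of the coding sequences, the members' median was -0.12 and that of all coding sequences 0.08. Relative to the median of all, the members were at -0.21 under both scalings. Other factors shift every coding sequence by nearly the same amount, so the scalings could not differ in this. On totals the rule itself keeps the members near 0. Of the 4611 calls with TMM factors 48.6% were higher in number 1, and of the 4789 calls with factors taken from the members 57.7% were.

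For large against small fish the same change of scaling moved the members' median log2 difference from 0.00 with totals to 0.06 with TMM factors, and that of all coding sequences from -0.06 to -0.01. The members' median was 0.07 above that of all coding sequences either way, which again follows from the shift common to all of them. The other coding sequences within the limits on level had a median of -0.04 on totals, nearer to the members' 0.00.

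**Figure D4:**
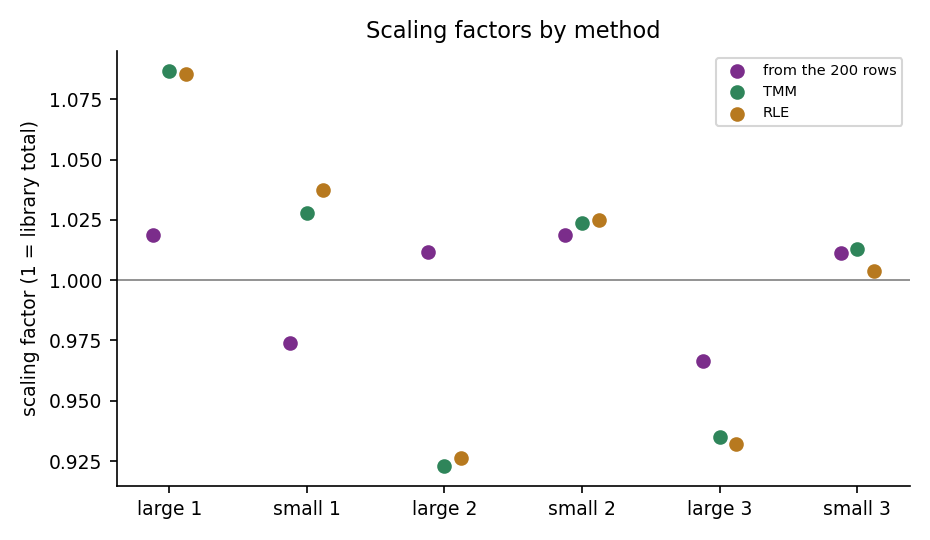
Scaling factor of each library (1 is the library total) computed from the 200 members (purple), by TMM (green) and by RLE (brown). Factors from the members lie between 0.967 and 1.02, and TMM factors between 0.923 and 1.09, with large library 1 highest and large library 2 lowest.

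Factors computed from the members alone stayed near the library totals, as the rule makes them do: 1.02, 1.01 and 0.967 for libraries 1, 2 and 3 of large fish and 0.974, 1.02 and 1.01 for those of small fish. The TMM factors were 1.09, 0.923 and 0.935 for large fish and 1.03, 1.02 and 1.01 for small fish. With factors from the members in place of TMM, edgeR again called 0 coding sequences between large and small fish, and 205 had an unadjusted p under 0.05, against 194.

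Membership changed with the scaling. With TMM factors the rule chose 119 of the 200 again and with RLE factors, the median ratios that DESeq2 uses, 117. The 81 members not chosen under TMM had CVs of 11.4% to 16.6% there, with a median of 13.1%, so that they lost rank but stayed well under the median of 34.3% of the other coding sequences on that scale. Over all members the median CV was 10.1% with either set of factors.

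Membership also depended on single libraries. Leaving out 1 library and choosing again gave between 118 of the 200 (without small library 1) and 150 (without small library 2), and 130 without large library 1. Without both libraries of number 1 only 52 of the 200 were chosen again, against 112 without number 2 and 96 without number 3. The 3 large libraries alone gave 75 of the members and the 3 small libraries alone 71, and the lists chosen on each group had 25 coding sequences in common, of which 23 were members.

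A set of 65 members was chosen again under TMM, under RLE and in each of the 6 choices that left out 1 library. Their mean levels ran from 20.5 to 880 CPM. HSB_liver_CDS_8182, HSB_liver_CDS_25716 and HSB_liver_CDS_2886 were among them, and so was HSB_liver_CDS_16462, named here after its values were seen because the largest of its CVs under the 3 scalings was the smallest. HSB_liver_CDS_16462 stood at 60.4, 52.9 and 54.4 CPM in large fish and at 55.3, 56.3 and 56.1 CPM in small fish. Its CVs were 4.55% on totals, 2.86% with TMM and 3.13% with RLE factors. Counting alone would give it a CV of 6.12%, so these CVs do not measure how steady the transcript itself is. The most abundant of the 65, likewise named after the fact, was HSB_liver_CDS_2246 with 948, 871 and 850 CPM in large fish and 833, 902 and 877 CPM in small fish. The 65 were picked on these libraries and are a description, not a tested set.

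How steady such a choice remains in a library that took no part in it can be measured. The rule was therefore applied 6 times, each time to 5 libraries, and the 200 coding sequences so chosen were read in the sixth. In the left-out library the median absolute log2 ratio to the mean of the other 5 was 0.22, 0.18 and 0.18 for libraries 1, 2 and 3 of large fish and 0.25, 0.17 and 0.17 for those of small fish. For the other coding sequences within the same limits it was 0.58, 0.30 and 0.45 for large fish and 0.61, 0.31 and 0.47 for small fish. The chosen coding sequences deviated less in 6 of 6 libraries.

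The mean difference was -0.26 ± 0.10 (SD, n = 6) on the log2 scale, with p = 0.03125 in a two-sided exact sign-flip permutation test over the 6 left-out libraries, the smallest p that 6 units can give. The 6 choices share libraries, so their differences are not independent, and they went together by number, with means of -0.36, -0.13 and -0.28 for numbers 1, 2 and 3. With the 3 numbers as units the exact sign-flip permutation test gave p = 0.25, the smallest that 3 units allow, so the call rests on counting same-numbered libraries as separate. Without large library 1 the mean difference was -0.15 and without small library 1 -0.16, and with 5 libraries the test can reach no p below 0.0625.

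In the left-out library 62.0% to 83.0% of the chosen coding sequences lay within 1.25-fold of the mean of the other 5, against 28.0% to 52.5% of the others. Between 0 and 4 of 200 lay beyond 2-fold, against 8.22% to 28.9% of the others. Counting error in the left-out library alone would give a median absolute log2 deviation of 0.03 to 0.10, so the deviations of 0.17 to 0.25 were larger than counting at this depth. The 200 members chosen on all 6 libraries deviated from their own mean by a median of 0.08 to 0.10. That mean includes the library read, which makes the deviation smaller, and no pseudocount was added, so the measures are not the same.

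The direction of these deviations, on library totals, repeated the pattern by library. The chosen coding sequences stood at a median of -0.15 in large library 3 and -0.18 in small library 1 when these were left out, and at 0.02 to 0.08 in the other 4. The other coding sequences followed a different order, with -0.23 in large library 3, -0.16 in large library 2, -0.12 in small library 3, -0.09 in small library 1, -0.02 in small library 2 and 0.01 in large library 1.

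Leaving out both libraries of a number, so that the partner of the library read took no part either, made the choice less steady for number 1. Coding sequences chosen on numbers 2 and 3 deviated by a median of 0.44 in large library 1 and 0.52 in small library 1, against 0.69 and 0.73 for the others, and 31 and 44 of the 200 lay beyond 2-fold there. For numbers 2 and 3 the medians were 0.19 to 0.24, against 0.34 to 0.55 for the others. The mean difference over the 6 libraries was -0.23, again with the smaller deviation in the chosen coding sequences in 6 of 6.

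**Figure D5:**
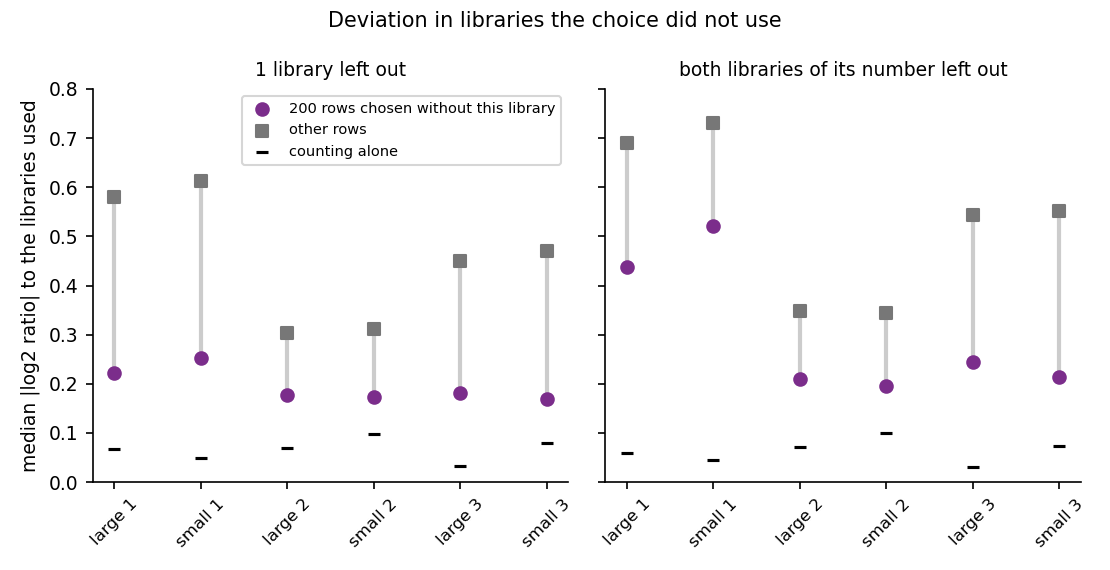
Median absolute log2 ratio of the CPM in a left-out library to the mean of the libraries used for the choice, for 200 coding sequences chosen without it (purple), for the other coding sequences within the limits (grey) and as counting in that library alone would give (black dashes). Left, 1 library left out; right, both libraries of its number. Purple lies below grey in 6 of 6 libraries on each side, and the purple values of number 1 rise to 0.44 and 0.52 on the right.

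Choosing on one growth group and reading in the other gave the same direction. The 200 steadiest over the 3 large libraries had a median CV of 4.66% there and of 17.1% over the small libraries, where the other coding sequences had 35.9%. The 200 steadiest over the small libraries had a median CV of 4.66% there and of 16.6% over the large ones, against 35.0% for the others. In both directions the CV was more than 3 times as large in the group that took no part in the choice, and still below that of the other coding sequences. The 2 groups share library numbers. Deviations of same-numbered libraries correlated at 0.85, 0.52 and 0.83 among the other coding sequences, so the second group is not an independent check.

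High correlations were rarer among pairs of members than among pairs of other coding sequences. The rule leaves out coding sequences of large spread, spread shared by number included, so this is not read as a trait of the members. Of the 19900 pairs of members, 3.92% correlated above 0.8 across the 6 libraries, against 15.1% of the pairs of other coding sequences. All pairs share the same 6 libraries and their depths, and in members counting error is a larger part of each profile, so the shares are given without a test.

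The rule did not use the numbering of the table, and the members' places in it are given as counts without a test. They ran from number 900 to 38041, with 45.5% in the lower part of the numbering, against 47.0% of the 4834. A coding sequence within the limits stood directly before or after 68 members (34%), against 48.2% of the others. Those 82 neighbours of members had a median CV of 32.1% (quartiles 18.0% and 49.9%), and the neighbours of the others 38.2% (24.2% and 59.1%). The median correlation with the neighbour across the 6 libraries was 0.14 for members and 0.48 for the others. The rule left the members little spread in these same libraries, and counting error is a larger part of their profiles. The lower correlation is therefore not read as a trait of the members. Only 1 pair of members had consecutive numbers, HSB_liver_CDS_2885 and HSB_liver_CDS_2886. Their levels correlated at -0.01, a value under the same limit. The labels do not say what order the numbering follows.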

How the data were processed

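RNA was sequenced from 6 liver libraries, each a pool of fish, prepared with an Illumina TruSeq kit per the labels' protocols. The authors deposited estimated counts per coding sequence, taken to be expected counts because the submitters' processing notes name eXpress 1.5.1. Those notes also name Trim Galore 0.4.3, Bowtie2 2.3.1 and DESeq2, without roles or settings. The values were whole (0 were not). eXpress shares reads among similar sequences, so near-identical copies of a gene, those of both parent species included, may be uncertain or summed.

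CPM were computed from library totals (2434421 to 19625891), where a count of 0 allows 3 counts, or 1.23 CPM in the shallowest library. The test was edgeR 4.0.16 in R 4.3.3 (robust quasi-likelihood, TMM factors, filterByExpr, Benjamini-Hochberg adjustment, threshold 0.05) on 18135 coding sequences, with DESeq2 1.42.0 and limma 3.58.1 as alternatives. The scripts were tested on simulated data. Log2 CPM used a prior count of 2, and ratios in left-out libraries a pseudocount of 0.5 CPM. Descriptions used Python 3.11.15.

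Same-numbered libraries were checked for pairing over 21544 coding sequences above 1 CPM in 3 libraries: their deviations from group means correlated at 0.68, 0.17 and 0.55, each above the limit of 0.1, so the numbers were taken as pairs. Number 2 was the weakest. Large library 3 and small library 2 correlated at 0.18 and large library 2 and small library 3 at 0.11, also above the limit. The limit thus does not set number 2 apart as a pair, and every result by number carries this doubt. The sample titles number the pools straight through both groups, and only the short codes in the descriptions repeat a number. The pairing comes from these values alone.

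Named coding sequences were the 3 of lowest CV, ranks 100, 200 and 201, the highest and lowest level, the 2 largest group differences in each direction, and the lowest CV outside each limit on level. HSB_liver_CDS_32304 was added after its values were seen. The members and the gene lists were chosen with earlier results of these data known. Of the 3 gene lists 0 could be matched.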

Additional observations from a re-analysis of the deposited data

How the results depend on the processing

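The count of coding sequences called between large and small fish was 0 in edgeR with TMM, RLE, total-count or member-based scaling, without the filter, with the replicate block (0 calls, 907 at an unadjusted p under 0.05) and without each library in turn, and in limma voom. It was 1 of 37332 in DESeq2 and 51 of 37503 in DESeq2 with the block, with 0 members called in each of these fits. For number 1, leaving out a library gave 668 to 4067 calls. Of the 200 members, 119 were chosen again with TMM, 117 with RLE, 89 with a limit of 50 CPM, 118 to 150 without 1 library, 52, 112 and 96 without numbers 1, 2 and 3, and 75 and 71 on the large or small libraries alone. A limit of 10 CPM, keeping the most abundant, other measures of spread and thinning to 2434421 counts kept 137 to 195. The smaller deviation in left-out libraries kept its direction in 6 other settings. There p was again 0.03125 (exact permutation test), the smallest that 6 units can give. These settings use the same libraries, so they are not added evidence. Without 1 library the difference was -0.3006 to -0.1497, where p cannot fall below 0.0625. With the 3 numbers as units (replicate block) the difference was -0.2579 (p = 0.25 in the exact permutation test). It was -0.2318 with both libraries of a number left out (exact p = 0.25) and -0.2057 with the choice on 1 growth group (exact p = 0.5). Each of these 3 p-values is the smallest its units allow. The members' median log2 difference between large and small was 0.0612 with TMM and 0.0623 with RLE, against 9.34e-05 with totals, the cause of the shift being the factors themselves. Membership without a number, choices on 1 growth group, numbers as units and the large against small fit with total counts were added after seeing the data. The part of counting error in the ranking was not tested, and depth at low level does not resolve which member is the steadier. In the lowest band of level the median member's CV was 1.01 times its counting CV, a ratio that the limit on CV keeps low.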
